A study of Nannochloropsis oceanica with 10 samples.

Results

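The genes described here are those of *N. oceanica* IMET1 that have no informative description in the authors' tables and that stood highest after 1 h of high light in the wild type (WT). A gene counted as uncharacterized where its description was empty or held a word such as hypothetical, unknown or predicted protein. The members were chosen on the WT values themselves. A member had a WT mean of at least 50 normalised counts after 1 h, at least 1.5 times each of its other WT means (dark, 6, 96 and 144 h), and every 1 h replicate above every other WT replicate. A normalised count is a gene's read count divided by the size factor of its library. The rule kept 95 of 4710 uncharacterized genes, of 10363 genes in all.

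The study followed mRNA levels in IMET1, WT, and in *hlr1*, a single insertion mutant line in the same background that carries a defect in HLR1, a light-harvesting gene. Both strains had grown at 25 °C in light of 50 μmol photons per m2 and s, spent a night in the dark, and were then moved to continuous light of 200 μmol photons per m2 and s. Sampling took place at the end of the dark and at 1, 6, 96 and 144 h of that light, with 3 replicate libraries (a, b and c) for each strain and time. No culture stayed in the dark or in growth light alongside, so high light, the onset of light and the hours passed cannot be told apart. The labels give a 12 h light and 12 h dark cycle for the inoculum, and the methods constant light for the cultures. The replicate sets are described as biologically independent, and each p-value measures the spread between these libraries.

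Nannochloropsis species are unicellular stramenopile algae that carry only chlorophyll a and store much of their carbon as oil. When algal cells pass from darkness into bright light, many transcripts change within the first hour, and some of these changes pass while others last. Many genes of such algae resemble no protein of known function, and a label such as hypothetical protein says only that a related sequence exists in another genome.

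Library totals ranged from 4424898 to 7019039 counts, and the libraries differed in how many genes they caught. All libraries of 6, 96 and 144 h had a count for between 9864 and 10216 genes. The dark and 1 h libraries had between 7184 and 9802, with the fewest in replicate a of the *hlr1* dark (7184) and replicate b of *hlr1* at 1 h (7465). Among the members, 66 were above 0 in all 30 libraries. A count of 0 was found for 17 members in *hlr1* dark replicate a and for 15 in WT dark replicate b, but for none in the WT libraries of 6, 96 and 144 h. The 1 h libraries of *hlr1* had 7, 4 and 0 members at 0. What this did to the 1 h values was not tested beyond leaving libraries out, and results are given with and without these 2 *hlr1* libraries where they moved. HLR1 itself (g4928) stood between 4925 and 10260 normalised counts in the WT group means and between 3348 and 4517 in those of *hlr1*. At 1 h the means were 4925 and 4517, and counts over the whole gene do not check the insertion itself.

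**Figure D1:**
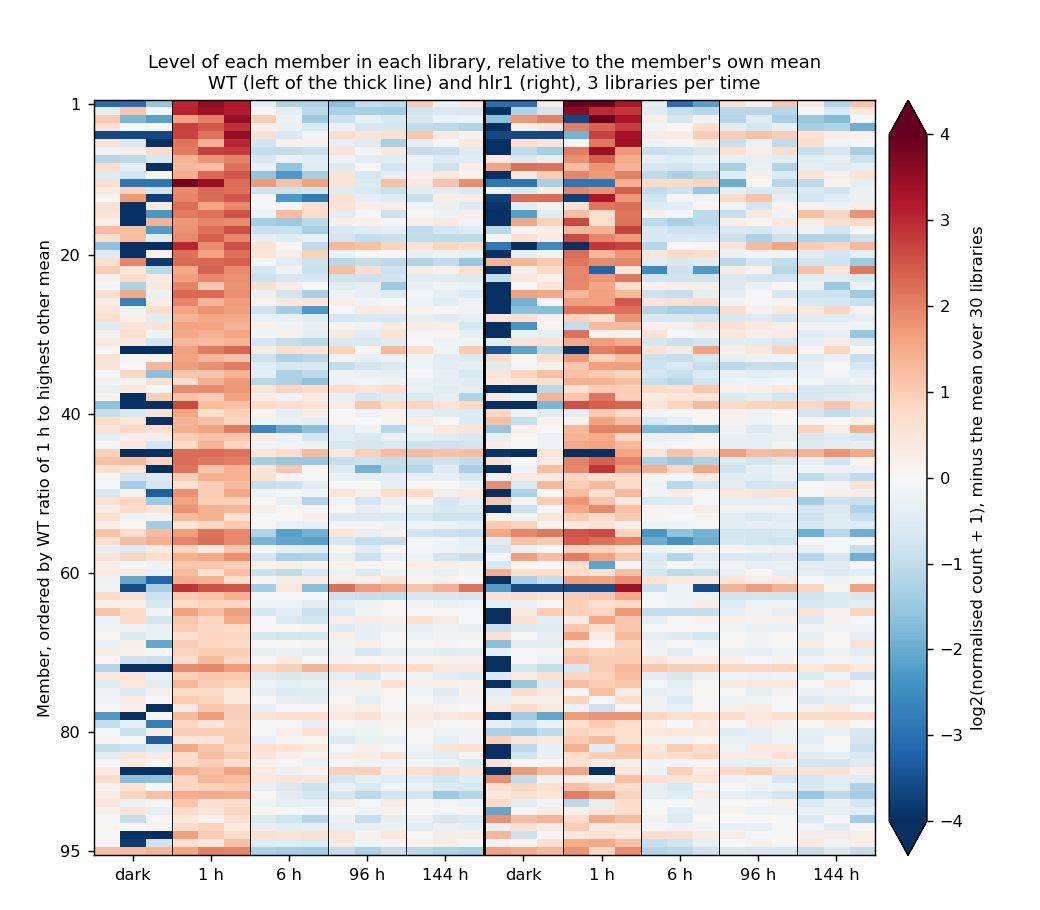
Heat map of the 95 members (rows, ordered by the WT ratio of the 1 h mean to the highest other mean) in 30 libraries (columns, 3 per strain and time). Colour gives log2(normalised count + 1) minus the member's mean over all libraries, and the scale stops at 4 in each direction. The WT 1 h columns are red by the rule that chose the members. The *hlr1* 1 h columns, which the rule used only through the shared size factors, are red for most rows. The dark blue cells of the dark and 1 h columns are mostly counts of 0.

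Together the members held a small part of the RNA in the dark and a larger one after 1 h. In WT, where the members were chosen, they took 0.87 ± 0.152% of all counts in the dark, 2.18 ± 0.0704% at 1 h and 0.803 ± 0.0794% after 6 h (SD, n = 3). In *hlr1* the shares were 0.933 ± 0.0467% in the dark, 2.18 ± 0.0455% at 1 h and 0.846 ± 0.0647% after 6 h (SD, n = 3). The 3 *hlr1* 1 h libraries lay between 2.13 and 2.22%, and none of the other 12 *hlr1* libraries exceeded 0.975%. After 96 and 144 h the *hlr1* shares were 0.822 ± 0.0197% and 0.72 ± 0.0366% (SD, n = 3). All 3 *hlr1* libraries of 1 h thus stood above all others of that strain, those with few genes included. As a sum of counts, the share weighs the members of highest level most. Their WT 1 h means reached 20843 normalised counts, where the median over all members was 512. A share is relative to the counts of all other genes. Changes in the number of cells and in RNA per cell cannot be told apart in these bulk cultures.

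**Figure D2:**
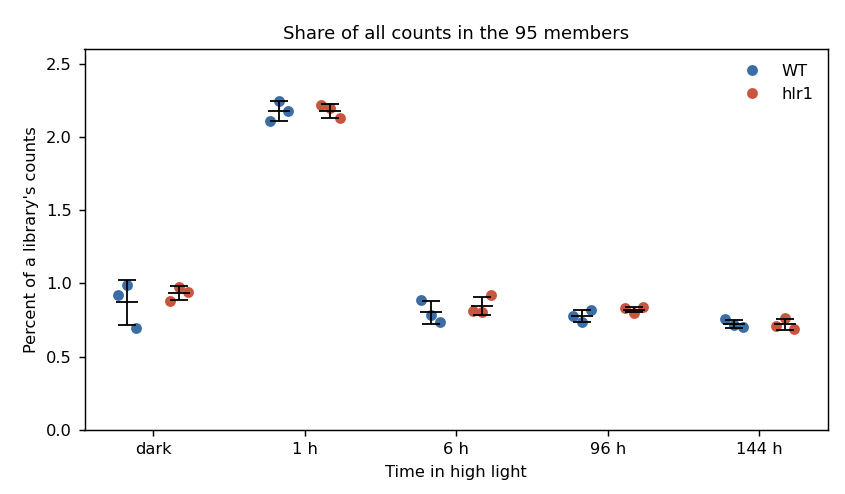
Percent of a library's counts that fell on the 95 members (vertical axis) at each time (horizontal axis). Points are libraries, and black bars give the mean and SD of 3. All 6 libraries of 1 h lie between 2.11 and 2.25%, and the other 24 lie below 1%.

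The height of the WT peak, which the rule fixed to be at least 1.5, ranged from 1.51 to 7.46 with a median of 2.02. It was 2 or more in 49 members and 3 or more in 15. The second highest WT mean was that of the dark in 43 members, of 6 h in 20, of 96 h in 19 and of 144 h in 13. Just inside the ratio of 1.5 were g3522, g919 and g425, each at 1.51, and just outside were g5163, g7113 and g5959 at 1.49, 1.49 and 1.48. Just inside the minimum of 50 were g5545, g4619 and g8263 with WT 1 h means of 62.04, 72.69 and 73.51. Just outside were g5952, g9961 and g3862 with 48, 35.32 and 30.51. A further 57 uncharacterized genes passed the mean and the ratio but had replicates that overlapped. The 124 annotated genes that met the same rule were 2.19% of 5653, against 2.02% for the uncharacterized genes.

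The levels spanned a wide range, from 62.04 to 20843 normalised counts in the WT 1 h mean, with a median of 512. The highest member was g4091, which has no protein match. Its WT libraries read 7686, 11229 and 11352 in the dark and 19807, 21600 and 21122 at 1 h, and the 6 h libraries were back at 12428, 8342 and 5948. The *hlr1* libraries read 7873, 10306 and 8377 in the dark and 25205, 27320 and 17546 at 1 h, then 8238, 8555 and 10493 after 6 h. In both strains the 1 h libraries stood clear of all others. The next was g359, like a hypothetical *N. gaditana* protein, with WT means of 8200 in the dark, 16785 at 1 h and 4717 after 144 h. In *hlr1* its libraries read 9849, 8591 and 7136 in the dark and 23774, 25302 and 20304 at 1 h. The level after 144 h was lower than in the dark in both strains, by the means. The third, g8234, had WT means of 5861, 12265 and 7016 in the dark and after 1 and 6 h. Another 7 followed by level, g3522, g4068, g6374, g9170, g3490, g645 and g7495, with WT 1 h means between 2326 and 7415.

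The sharpest peaks were not those of the members of highest level named above. Their WT 1 h means ran from 73.8 for g6827 to 1860 for g2966. In WT, g9073 was at 0, 0 and 1.82 normalised counts in the dark and at 65.4, 96.0 and 75.6 at 1 h. By 6 h it was down to 5.34, 2.61 and 2.61. Its *hlr1* libraries read 0, 0 and 9.18 in the dark, 163.1, 221.4 and 77.6 at 1 h and 5.35, 0 and 0.856 after 6 h. The transcript was thus low in the dark and present in every 1 h library of both strains. Its rise within *hlr1* did not pass (log2 change 5.52 ± 2.15 SE, edgeR adjusted p = 0.312). The *hlr1* dark library not at 0 was replicate c, with a count for 9785 genes, the most of the 3. g9073 is described as a hypothetical protein, and its match in a second database is named putative transcription factor B663R. The second sharpest, g3132, read 68.8, 199.2 and 85.5 in the WT dark and 775, 966 and 803 at 1 h. In *hlr1* it stood at 4.42, 38.0 and 54.1 in the dark and at 1117, 727 and 655 at 1 h, with no overlap. It is like a hypothetical *N. gaditana* protein. For g2966, of the same kind, the WT means were 293 in the dark, 1860 at 1 h and 417 after 6 h, and those of *hlr1* were 516, 2173 and 429. The ratios of g6827, g4093, g1220, g7851, g7913, g5357 and g2339 lay between 3.66 and 5.98. Not all of these were as even between replicates. In g6827 the WT 1 h libraries read 36.4, 48.5 and 136.5, and the *hlr1* ones 0, 243.7 and 117.8. The *hlr1* libraries of g7851, like a diatom protein, spread from 39.3 to 433 at 1 h.

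In others of these sharp members 1 h stood apart in both strains. g7913, with no protein match, had a mean of 132.7 in the WT dark and read 449, 713 and 743 at 1 h and 54.2, 53.1 and 56.5 at 6 h. Its *hlr1* libraries read, in the same order of times, 1.47, 52.3 and 40.8, then 450, 1171 and 352, then 55.3, 58.1 and 64.2. The 6 libraries of 6 h thus lay within a narrow band, while those of the dark and of 1 h spread. g2339, like an *N. gaditana* protein of unknown function, had a mean of 89.3 in the WT dark and read 311, 549 and 644 at 1 h and 37.3, 22.6 and 44.3 at 6 h. In *hlr1* it read 4.42, 151.9 and 235.6, then 441, 372 and 460, then 56.2, 46.3 and 55.6. Both genes stood highest at 1 h in both strains with no overlap between 1 h and any other time, and their WT means of 6 h were below those of the dark. In *hlr1* both fell from 1 to 6 h by the edgeR test within that strain. From the dark to 1 h the log2 change of g7913 was 4.28 ± 1.06 (SE), which DESeq2 called and edgeR did not (adjusted p = 0.000222 and 0.0784), and that of g2339 was 1.64 ± 1.04 (edgeR adjusted p = 0.664).

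A few members read low before the light. In 8 of them the WT dark mean was under 10% of the 1 h mean, and 6 of these were also under 10% in *hlr1*. These means include libraries at 0, and in WT dark replicate a, with a count for 9768 genes, 4 of the 8 were over 10%, namely g2253 at 25.2, g10096 at 47.5, g4619 at 10.66 and g8263 at 9.69. The clearest was g1220, with no protein match, at 0 in all 6 dark libraries of both strains, which allows up to 3 counts over the 3 libraries of a group (counting error only). After 1 h it read 79.4, 54.7 and 139.2 in WT and 2.31, 78.6 and 119.7 in *hlr1*, and after 6 h it lay between 6.96 and 24.0 in the 6 libraries. It stayed above 0 at every later time. A count of 0 in a library with few genes is a weaker statement than one in a library with many, and the 6 dark libraries had between 7184 and 9785 genes with a count.

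By description, 40 of the members resembled *N. gaditana* proteins of unknown function, 37 had no protein match and 18 resembled unknown proteins of other organisms. These are 42.1, 38.9 and 18.9%, where all uncharacterized genes gave 44.5, 40.8 and 14.8%. The median length of a member on the genome was 1702 bp, from 412 to 19538, against 1755 bp for all uncharacterized genes. The members lay on 42 scaffolds. A second protein database gave 16 of the 95 a match, 16.8% against 15.9% of all uncharacterized genes.

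Among the 10 matched members of highest level, several had matches in RNA work. g3522 resembled small nuclear ribonucleoprotein G, a subunit of the ring on which spliceosomal RNAs are built. Its WT libraries read 4695, 4835 and 5238 in the dark, 6102, 8266 and 7878 at 1 h and 854, 803 and 784 after 6 h. The WT 1 h libraries were above the dark ones, but the larger step was that between 1 and 6 h. In *hlr1* the 1 h libraries, 7121, 3610 and 7464, overlapped those of the dark, 6239, 5675 and 5088, and the 6 h libraries were at 905, 969 and 1152. g9757, like a serine/arginine-rich splicing factor, and g8182, like a tRNA methyltransferase, had WT 1 h means of 974 and 825 and *hlr1* 1 h means of 716 and 737. In *hlr1* the dark means were 620 for g9757 and 798 for g8182, and the dark and 1 h libraries of both overlapped.

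The metabolic matches among these 10 were g4068 and g5256. g4068 resembled ornithine cyclodeaminase, which makes proline from ornithine. Its WT libraries stood at 2308, 3469 and 2604 in the dark and at 6485, 7821 and 7290 at 1 h. Its *hlr1* libraries stood at 1065, 2803 and 2276 in the dark, at 7935, 6854 and 8931 after 1 h and at 1222, 1175 and 1184 after 6 h, so the 1 h libraries again stood apart. g5256 resembled serine racemase, which interconverts the mirror forms of serine, and had means of 640, 1565 and 434 in WT and of 759, 1290 and 352 in *hlr1* in the dark and after 1 and 6 h. The remaining 5 matches were structural, membrane or vague. g6374 resembled a yeast SH3 domain protein, g3514 the membrane protein PNS1, g7278 an uncharacterized fission yeast membrane protein, g3118 a bacterial protein of unknown role and g7306 dynactin subunit 5, part of the complex that links dynein to its cargo. The level of g6374 was even between libraries, with 3110, 3339 and 2539 in the WT dark, 6628, 6049 and 5675 after 1 h and 560, 490 and 492 after 6 h. g7278 had WT means of 732, 1530 and 110 and *hlr1* means of 391, 1590 and 127 at the same 3 times. g3514 had WT means of 673, 1666 and 936 and *hlr1* means of 544, 1276 and 849, and g3118 had 397, 716 and 433 in WT and 159, 658 and 582 in *hlr1*. For g7306 the WT libraries read 128.9, 158.8 and 347.4 in the dark and 728, 383 and 473 at 1 h, and the *hlr1* libraries, 437.6, 218.6 and 182.6 and then 184.0, 509.6 and 416.7, overlapped. The dark mean of g3118 in *hlr1* included a library at 0. None of these 3 passed in *hlr1* between the dark and 1 h or between 1 and 6 h, and g3118 was lower after 144 h than after 1 h. Of all 16 matched members, 6 met the rule of the peak in *hlr1*, 2 rose there from the dark to 1 h and 9 fell from 1 to 6 h, by the edgeR tests and thresholds used within that strain. Of all members 42, 11 and 52 did so, and of all genes 2.27, 0.687 and 12.1% did.

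Whether the peak also occurred in the other strain was asked of the *hlr1* libraries. These took no part in the choice apart from the size factors, which were computed over all 30 libraries. The same numeric rule was met in *hlr1* by 42 of the 95 members (44.2%), where 2.27% of all 10363 genes met it. Of the annotated genes chosen in WT by the same rule, 53 of 124 (42.7%) met it. The highest *hlr1* mean was that of 1 h in 81 members (85.3%), where this held for 21.5% of the 7622 genes with an *hlr1* 1 h mean of at least 50. In the others it was that of the dark (9 members), of 6 h (3) or of 144 h (2). Of the 53 members that missed the rule, 13 passed the mean and the ratio but had overlapping replicates, 40 were under the ratio, and 4 of these were also under the mean. Without the 2 *hlr1* libraries of fewest genes, 43 members met the rule. The *hlr1* ratio of the 1 h mean to the highest other had a median of 1.67 over the members and of 0.637 over those 7622 genes. Level and outcome went together, since 21 of the 27 members with a WT 1 h mean of 1000 or more met the rule in *hlr1* and 21 of the other 68 did. The share among all genes of like level was not taken, and the part of read depth in this was not tested.

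**Figure D3:**
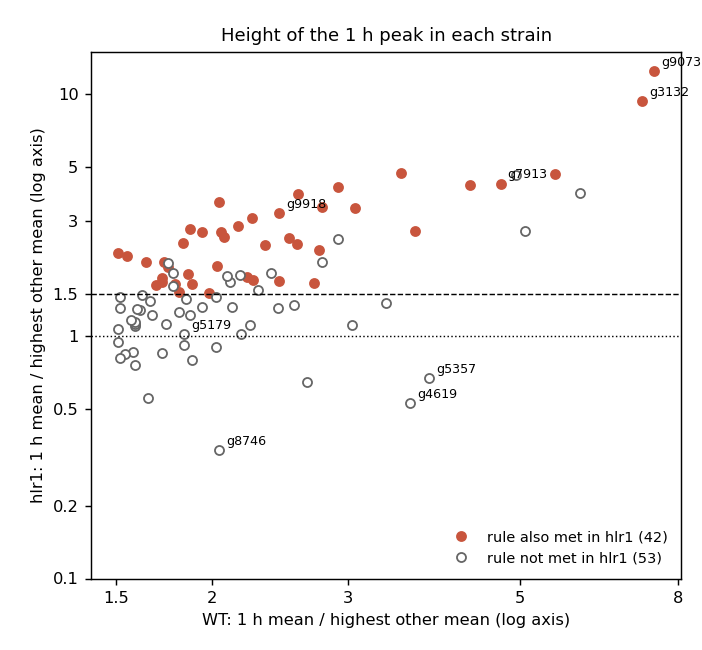
Height of the 1 h peak, as the 1 h mean divided by the highest mean at another time, in WT (horizontal) and *hlr1* (vertical), both on log axes, for the 95 members. Filled points are the 42 members that met the rule in *hlr1* too, and the dashed line marks the ratio of 1.5. No point lies left of 1.5 because WT chose the members, and in *hlr1* the points range from below 0.5 to above 10.

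Within *hlr1*, 1 h was tested against the dark with edgeR's quasi-likelihood test, over all genes. Of the 95 members 90 had enough counts to be tested. Genes pass this filter also through 1 h alone, and the 5 left out (g1220, g4619, g8522, g8746 and g8263) each had a dark library at 0 and a 1 h library at 0 or, in g1220, at 2.31 in *hlr1*. A call needed a change over 2-fold with a Benjamini-Hochberg adjusted p under 0.05. Of the 90, 11 rose by this criterion (12.2%), where 0.687% of all 8736 genes tested rose, and none fell, where 1.77% of all genes fell. The fitted change was positive in 80 of the 90. Its median was 1.19 on the log2 scale over the members and 0.02 over all genes. At an unadjusted p under 0.05, 36 members were higher (all genes 4.58%) and none was lower (all genes 7.57%). DESeq2 called 25 higher (all genes 3.51%) and none lower (all genes 4.66%). Its shares are of the 5757 genes with a DESeq2 adjusted p, and members such as g9073 and g6827 had none.

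The members that rose within *hlr1* were mostly of high level. For g6374 the *hlr1* libraries read 2018, 1407 and 1687 in the dark and 5541, 7146 and 5656 at 1 h, a log2 change of 1.82 ± 0.21 (SE; edgeR adjusted p = 0.00288). For g359 the change was 1.41 ± 0.19 (edgeR adjusted p = 0.00543). g8234 read 3635, 4731 and 4815 in the dark and 14220, 10814 and 14229 at 1 h, a change of 1.54 ± 0.22 (edgeR adjusted p = 0.0074). These 3 had the smallest adjusted p of the 11, and in none of them did dark and 1 h libraries overlap. The same libraries had picked them, so this is no separate result. g2966 followed with 723, 377 and 448 in the dark and 2002, 2942 and 1576 at 1 h, a change of 2.05 ± 0.33 (edgeR adjusted p = 0.0119). g7579, like an *N. gaditana* protein of unknown function, read 247.5, 184.7 and 334.5 in the dark and 1100, 994 and 1533 at 1 h, a change of 2.22 ± 0.37 (edgeR adjusted p = 0.0145). g4091, g9170 and g4068 rose by log2 changes of 1.35 ± 0.22, 1.73 ± 0.30 and 1.90 ± 0.35 (edgeR adjusted p = 0.0136, 0.0167 and 0.0234). Of these, g4068 carries the ornithine cyclodeaminase match and g9170 is another gene like an *N. gaditana* protein of unknown function. The *hlr1* libraries of g9170 read 716, 1033 and 848 in the dark and 4072, 2594 and 2221 at 1 h, so that the lowest 1 h library was above the highest dark one.

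The 2 largest rises among the 11 had wide errors, and in both genes 1 dark library was far below the other 2. For g3132 the change was 4.62 ± 0.82 (edgeR adjusted p = 0.0186), with 4.42 in dark replicate a against 38.0 and 54.1. For g9918, like a protein of the alga Guillardia theta, it was 4.30 ± 0.92 (edgeR adjusted p = 0.0421), with 4.42, 31.8 and 30.6 in the dark and 457, 460 and 472 at 1 h. The 1 h libraries of g9918 agreed closely, and even the higher dark libraries were far below them. g8908, with no protein match, rose by 1.96 ± 0.42 (edgeR adjusted p = 0.0444). It read 162.1, 152.9 and 192.8 in the dark, 723, 675 and 625 at 1 h and still 514, 534 and 520 after 6 h.

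**Figure D4:**
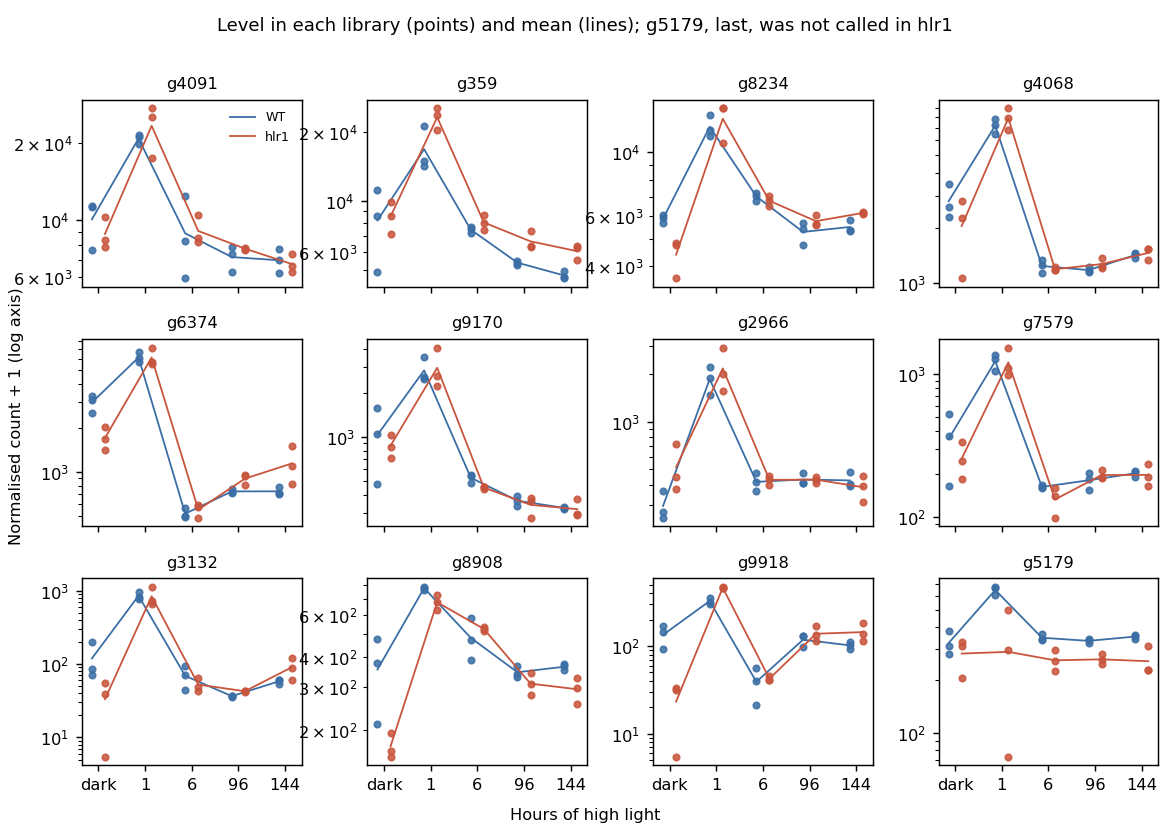
Normalised count + 1 on a log axis in each library (points) with the group means (lines) for the 11 members called higher after 1 h than in the dark within *hlr1*, and for g5179, which was not. WT is blue and *hlr1* red, and hours of high light run from left to right. For the 11 members, which were picked by their rise in these same libraries, all red points of 1 h lie above all red points of the dark. For g5179 they overlap, with 497.5, 72.0 and 295.0 after 1 h.

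The count of 11 moved with single libraries. It was 18 without dark replicate a and 17 without both that library and 1 h replicate b, 6 without dark replicate b, 4 without 1 h replicate a, and 6 without either 1 h replicate b or c. How many of all genes were called in these fits was not counted, so the shifts are not a result about the members alone. All 11 were among the 17 and among the 25 of DESeq2, and kept their call under other scalings and filters. Over all 15 alternatives g359 and g6374 kept it in 14, g3132 in 10, g4068 and g9918 in 9 and g8908 in 8. The 4 last named lost it without any single 1 h library (adjusted p up to 0.12 for g3132, 0.0959 for g4068, 0.17 for g9918 and 0.197 for g8908 in edgeR), and g9918 and g8908 also without dark replicate b or c, g3132 without dark replicate b and g4068 without dark replicate c.

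The later times were then set against 1 h within *hlr1*. After 6 h, 52 of 94 members tested were lower than after 1 h (55.3%), where 12.1% of all genes were lower, and no member was higher, where 10.4% of all genes were. After 96 h 55 of 93 were lower (59.1%, all genes 9.35%) and none higher (all genes 9.20%). After 144 h 56 of 94 were lower (59.6%, all genes 8.72%) and none higher (all genes 9.50%). The median change of the members was -1.53, -1.52 and -1.62 on the log2 scale at the 3 times, whereas that of all genes was 0.33, 0.38 and 0.37. Scaling by library totals moved both medians by up to 0.35. It shifts all genes alike, so the distance between the medians, -1.86, -1.91 and -1.99, could not move. Under it 42, 38 and 45 members were called lower after 6, 96 and 144 h. These 3 comparisons share the 1 h libraries. Of the members, 44 were lower at all 3 times, where 6.45% of the 9354 genes tested at all 3 were. At an unadjusted p under 0.05 no member was higher after 6, 96 or 144 h (all genes 19.1, 18.4 and 18.7%), and DESeq2 called none higher (all genes 18.1, 18.8 and 15.3%). After 144 h the count was 33 without 144 h replicate a. Shares of all genes were not taken under library totals or without this library.

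The falls from 1 to 6 h were steep in single genes. In *hlr1*, g3132 fell by 4.16 ± 0.33 on the log2 scale (SE; edgeR adjusted p = 0.000328), to 64.2, 48.0 and 41.9. g7278, the gene with the fission yeast membrane protein match, fell by 3.79 ± 0.23 (edgeR adjusted p = 0.000106), from 1154, 1855 and 1761 to 132.0, 128.8 and 121.5. It was partly back after 144 h, at 866, 569 and 1238, and its difference from 1 h did not pass then (-0.95 ± 0.32, edgeR adjusted p = 0.0814). g6374 fell by 3.62 ± 0.15 (edgeR adjusted p = 3.38e-05), to 573, 483 and 587, and g9918 by 3.62 ± 0.33 (edgeR adjusted p = 0.000529), to 44.6, 39.6 and 40.2. g9918 then read 166.7, 113.1 and 132.3 after 96 h, above every 6 h library. g7579 fell by 3.34 ± 0.29, g4068 by 2.88 ± 0.14, g9170 by 2.87 ± 0.24 and g3522 by 2.74 ± 0.31 (edgeR adjusted p = 0.000452, 5.49e-05, 0.000401 and 0.00131). g8908 was the exception among the 11, with a change of -0.51 ± 0.15 at 6 h that did not pass (edgeR adjusted p = 0.0511), and it was lower than at 1 h after 96 h (-1.24 ± 0.17, edgeR adjusted p = 0.00365). The other 10 were lower at all 3 later times. Of the 27 members with a WT 1 h mean of 1000 or more, 26 were lower at 6 h, and of the other 68, 26 were. The share among all genes of like level was not taken, and the part of read depth was not tested.

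**Figure D5:**
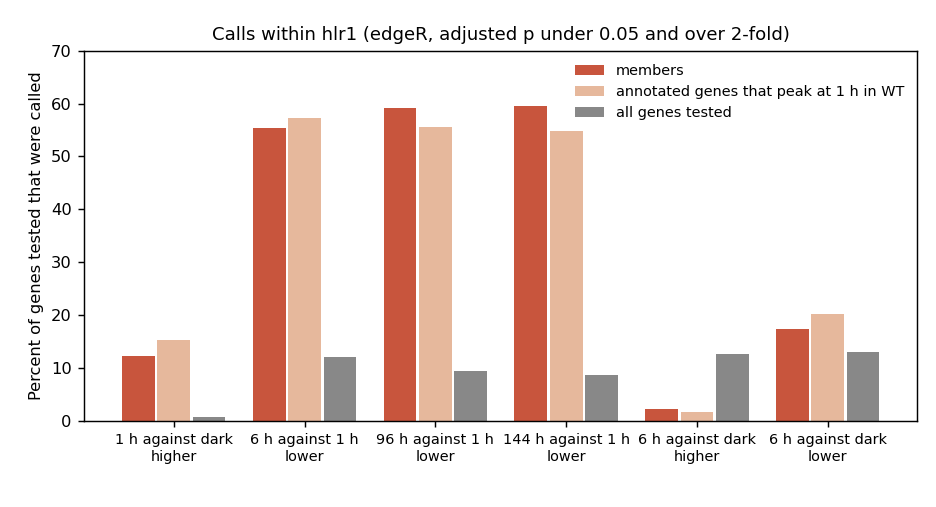
Percent of the genes tested that were called in each comparison within *hlr1* (bars), for the members, for the 124 annotated genes that met the same rule in WT, and for all genes. The members and the annotated genes lie at similar heights, from 55.3 to 59.6% and from 54.8 to 57.3% for the falls after 1 h, and all genes lie at 8.72 to 12.1%.

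After 6 h, with TMM scaling, the fitted level of 57 of 92 members tested was below that of the dark. By calls against the dark, 2 were higher after 6 h (2.17%, all genes 12.7%) and 16 were lower (17.4%, all genes 13.1%). The median change was -0.32 on the log2 scale, where that of all genes was 0.45. Scaled by library totals, the members' median was -0.00 and that of all genes 0.77, 47 members were below the dark level and 11 were called lower. Of the 16 lower members, 15 were also lower after 6 h than after 1 h, so that the dark and the 1 h level were both above the 6 h level. In g3522 the change from dark to 6 h was -2.59 ± 0.15 (edgeR adjusted p = 0.00011), in g5257 -1.85 ± 0.23 (edgeR adjusted p = 0.00196) and in g6374 -1.73 ± 0.18 (edgeR adjusted p = 0.000851). The 2 higher members were g8908, at 1.53 ± 0.26 (edgeR adjusted p = 0.00707), and g1220, whose dark libraries were all at 0. The 1 lower member that edgeR did not call lower than at 1 h (-2.28 ± 0.75, edgeR adjusted p = 0.0692; DESeq2 called it) was g5357, at 84.0, 130.3 and 126.5 in the dark, 63.6, 94.3 and 70.9 at 1 h and 16.9, 16.0 and 18.8 after 6 h. These counts moved with dark replicate a. Without it 38 members were lower and 9 higher, without dark replicate c 7 were higher, and without any single 6 h replicate none was. Shares of all genes were not taken in these fits or under library totals, so the shifts are not a result about the members alone.

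Between the strains at 1 h, the ratio of the *hlr1* to the WT mean had a median of 0.953 over the members. It lay between 0.67 and 1.5 in 76 of them, under 0.5 in 6 and over 1.5 in 5. WT 1 h values chose the members, and high WT values were thereby favoured, so these ratios are given with no test. The lowest was that of g4619, at 105.5, 78.5 and 34.1 in WT and at 0, 0 and 19.2 in *hlr1*. g8746 read 172.7, 176.5 and 166.0 in WT and 0, 0 and 111.1 in *hlr1*. In both genes the 0s fell in 1 h replicates a and b of *hlr1*, which had 8083 and 7465 genes with a count, and 9802 had one in replicate c. g3036 read 59.8, 108.4 and 77.5 in WT and 78.7, 1.31 and 27.8 in *hlr1*. g5179 was steadier in WT, at 675, 665 and 606 after 1 h and between 282 and 378 at all other times, while its *hlr1* means stayed between 255 and 288 at all 5 times. The 1 h libraries of *hlr1* spread from 72.0 to 497.5, wider than the 3 of any other time. g9615 read 203, 344 and 327 in WT and 136.5, 90.4 and 173.4 in *hlr1*. In the other direction were g9073, g4567, g6827, g5397 and g919. g919, like an *N. gaditana* protein of unknown function, read 197.9, 177.6 and 299.7 in WT and 352.9, 376.0 and 298.9 in *hlr1*. g4567 read 1070, 906 and 1245 in WT and 1357, 2351 and 1916 in *hlr1* after 1 h. It already stood at 2899, 1924 and 2109 in the *hlr1* dark, against 823, 428 and 871 in the WT dark.

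In the authors' gene numbering, 12 members lay next to another member, in 6 pairs. Next to a member lay 1.76% of all genes, and 14 members (14.7%) lay next to a gene of either kind that met the WT rule, against 4.04% of all genes. Reads of adjoining genes cannot be told apart where transcripts run into each other, since it is not stated whether counting used strand, although no member overlapped a neighbouring gene model. Coordinates are those of the authors' tables, and their genome build is not stated there. On scaffold 162, g5256 (start 129016, end 133810) and g5257 (start 133866, end 138170) lay on the same strand 55 bp apart. g5257 had means of 501, 1356 and 201 in WT and of 650, 1082 and 192 in *hlr1* in the dark and after 1 and 6 h. Its WT dark libraries spread widely, at 433, 1051 and 18.2. In both strains 1 h held the highest mean, as in g5256. On scaffold 82, g3132 (start 868563, end 869887) and g3133 (start 870494, end 872294) lay 606 bp apart and matched the same *N. gaditana* protein. g3133 was lower, at 110 in WT and 63.0 in *hlr1* in the 1 h means. Reads that suit both copies could be counted for either one. On scaffold 113, g4093 (start 6230, end 6641) and g4094 (start 9977, end 12721) lay in the first stretch of the scaffold on 1 strand, near g4091 (start 2464, end 3341). The *hlr1* libraries of g4093 read 2.95, 227.8 and 270.3 in the dark and 805, 1017 and 1384 at 1 h, and those of g4094 read 1.47, 66.7 and 238.7 and then 815, 790 and 1423. Both were lower at all 3 later times, but neither rise passed in edgeR, with dark replicate a far below the other 2 (edgeR adjusted p = 0.30 and 0.211). DESeq2 called the rise of g4094 (log2 change 3.34, DESeq2 adjusted p = 0.0185) but not that of g4093 (DESeq2 adjusted p = 0.0566).

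The pairs g5356 and g5357, g9614 and g9615, and g3723 and g3724 lay 114, 48 and 68 bp apart. g5356 and g5357 run away from each other, g3723 and g3724 run towards each other, and g9614 and g9615 share a strand. Of these 6 genes edgeR called g3723 and g3724 lower after 6 h than after 1 h in *hlr1* (-1.70 ± 0.48 and -1.01 ± 0.15, edgeR adjusted p = 0.0428 and 0.00344), whereas DESeq2 called g3723, g5356 and g5357 (log2 changes of -1.68, -1.24 and -2.25, DESeq2 adjusted p = 0.00102, 0.0206 and 0.000311) and had g3724 at -0.98, under 2-fold. One member had a light-harvesting neighbour. g9918 on scaffold 349 (start 116036, end 120026) began 104 bp from g9917 (start 112422, end 115931), a light harvesting complex protein on the opposite strand, and the genes run away from each other. g9917 read 2986, 2745 and 3053 in the *hlr1* dark and 55392, 43050 and 48437 after 1 h, a log2 change of 4.03 ± 0.20 (edgeR adjusted p = 1.43e-05) beside the 4.30 ± 0.92 of g9918. Likewise g5144 on scaffold 145 ends 1046 bp from g5145, a Golgi membrane protein, which peaked in WT by a ratio of 1.85. g5144 read 497.5, 526.6 and 1317 after 1 h in *hlr1* against 92.8, 219.6 and 249.9 in the dark. EdgeR did not call this rise (adjusted p = 0.132), and DESeq2 did (log2 change 2.08, DESeq2 adjusted p = 0.0115).

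Annotated genes that met the same rule in WT were looked at beside the members. The 8 with the largest WT ratio were g4962, g253, g9917, g8391, g5408, g10160, g3969 and g5816. g4962, the lipid droplet surface protein that coats oil bodies in these algae, had WT means of 1493 in the dark and 31614 after 1 h, and *hlr1* libraries of 706, 651 and 996 and then 38899, 34167 and 35445. Its ratio of 9.37 in WT exceeded that of every member. g5408, a proton-pumping ATPase, had WT means of 24838 and 80856, and g5816, which clears the by-product of methylation reactions, 1959 and 6345. The other 4 are described as a sodium/hydrogen exchanger, an adaptor of the Clp protease, a spermidine synthase and a cyclin-like protein, with ratios between 3.06 and 6.97. Annotated genes were also sorted by keywords in their descriptions, which miss genes of a class that are worded otherwise. Among the genes that met the rule, for example, the prefoldin subunits g6120 and g4195, the ATPases g5408 and g6301, the major facilitator g6957 and the homeodomain protein g8360 fell outside the lists of chaperones, transporters and transcription factors. Outside the list of splicing genes fell g9368, a small nuclear ribonucleoprotein. By keyword alone, the rule was met by 1 of 21 light-harvesting genes, 3 of 83 genes of ROS scavenging, 8 of 177 of tRNA and translation, 6 of 203 of lipid metabolism and 2 of 34 of pigment and heme synthesis, where 2.19% of all annotated genes met it. By keyword it was met by 1 of 82 genes listed as chaperones, 6 of 379 kinases and phosphatases, 4 of 320 genes of ubiquitin and proteases, 1 of 54 of chromatin, 1 of 114 RNA helicases and splicing genes and 1 of 109 of tubulin and motors. The 6 kinases and phosphatases include the metabolic enzymes g6144, a phosphoglycerate kinase, and g9992, a riboflavin kinase. The keyword list of transporters gave 3 of 287, of which g8791 is an acyl carrier protein taken in by its name. No gene on the keyword lists of transcription factors (131), ribosome biogenesis (55) and photoreceptors and DNA repair (37) met it.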

How the data were processed

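The members and the gene lists were chosen with earlier results of these data known. Per the labels, RNA of 10 samples (2 strains, 5 times) was sequenced as pairs of reads and mapped by the authors with TopHat2 2.0.12. The authors deposited read counts per gene, 3 replicate columns for each sample, and these counts were used as deposited. The program that counted reads, whether strand was used and the genome version are details not given in the sources used. The deposited normalised means, fold changes and p-values were not used.

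Counts of 30 libraries (totals 4424898 to 7019039) were divided by median-of-ratios size factors over the 5571 genes above 0 in all of them. Members were found by the rule given above, and WT values were described without a test. Within *hlr1*, 5 comparisons of 3 with 3 libraries were fitted separately in R 4.3.3 with edgeR 4.0.16 (filterByExpr with a minimum count of 10, TMM scaling, quasi-likelihood test), adjusted by Benjamini-Hochberg over all genes tested. The code was tested on simulated data. Alternatives were DESeq2 1.42.0, other scalings and filters, a 4-fold threshold, a fit of all *hlr1* groups, replicate blocks and leaving out libraries.

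Genes named are the members with the largest WT ratio, the highest WT level, the largest called rises in *hlr1*, those nearest a threshold, those next to another member, those with a second database match, those with extreme strain ratios, and the 8 annotated genes with the largest WT ratio. g5144, g5145 and the genes of the marker lists were named after their values were seen. Names of protein domains in the tables carry no score and were not used. No sequence is shown, since no sequence table or genome was used here.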

Additional observations from a re-analysis of the deposited data

Results flagged for a closer look

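g9615, which resembles an *N. gaditana* protein of unknown function, was highest at 1 h in every WT replicate by the rule, and in *hlr1* every 1 h library (136.5, 90.4 and 173.4 normalised counts) was below every dark library (218.0, 283.2 and 218.3), a ratio of 0.556. The difference between the strains was not tested, because WT values chose the gene, and within *hlr1* the difference did not pass (log2 change -0.88 ± 0.78 SE, edgeR adjusted p = 0.816).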

How the results depend on the processing

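The direction did not reverse in any alternative run for the 11 members named as risen in *hlr1*, which were picked for that rise. Each count was of 1 direction, so the counts could not show a reversal. With a ratio of 2 the rule kept 49 members. With library totals it kept 103, of which 77 were shared with the 95, and leaving out 1 WT library at a time gave 94 to 126. The count that met the rule in *hlr1* ranged from 42 to 51 without single libraries.

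For the rise from the dark to 1 h in *hlr1* (11 members), DESeq2 gave 25, the fit of all *hlr1* groups 26, a 4-fold threshold 4, the fit without replicate a of the dark and replicate b of 1 h 17, and leaving out 1 library at a time 4 to 18. At a 4-fold threshold the falls after 6, 96 and 144 h were 28, 25 and 23 members, and leaving out libraries gave 33 to 66 after 144 h. From the dark to 6 h, the 2 higher members became 1 with a mean count of at least 100, 5 with DESeq2, 5 in the fit of all groups, 1 at 4-fold, 9 without the libraries named above and 0 to 9 without single libraries. The 16 lower members became 26 in the fit of all groups, 4 at 4-fold, 38 without those libraries and 12 to 38 without single ones. The causes were not tested, and the 4-fold counts are smaller by construction. Apart from the DESeq2 shares given above, shares of all genes were not taken in these alternatives.

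Whether the letters a, b and c pair the libraries was not settled. The correlations of same-lettered deviations lay between -0.10 and 0.18 with values on both sides of 0, and different letters were not compared. With the letter as a replicate block, 3 members rose from the dark to 1 h, 41, 37 and 35 fell after 6, 96 and 144 h, and 0 rose and 13 fell from the dark to 6 h. Shares of all genes were not taken here either. Few replicates, uneven gene detection in the dark and 1 h libraries, and counts of 0 limit what can be seen in low members.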
